A study of Mus musculus with 5 samples.

Results

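Ccr7-positive mature dendritic cells were the barcodes of the kidney single-cell matrix that carried transcripts of an antigen-presenting cell together with Ccr7 and Fscn1. A barcode was taken when it had at least 500 unique molecular identifiers (UMIs, each standing for 1 captured transcript), at least 200 genes and at most 25% mitochondrial UMIs. It also had to have at least 3 UMIs of H2-Aa, at least 1 of Ccr7 and at least 1 of Fscn1, with 0 of Cd79a and 0 of Cd3d, Cd3e and Cd3g together. These limits were met by 53 of the 79202 barcodes that passed the depth, gene and mitochondrial limits. The 53 cells held 297533 UMIs, with a median of 5239 UMIs (732 to 20495) and 1482 genes per cell.

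The study followed acute kidney injury (AKI) after unilateral ischemia-reperfusion, in which the left renal pedicle was clipped for 35 minutes while the right kidney stayed intact. The labelled samples were 1 Sham kidney sample and AKI kidney samples at day 1, day 3, day 14 and day 28, and the protocol describes each kidney sample as coming from 3 mice. The methods count more matrices than the 5 libraries found here, and whether the mice of a sample were pooled was not stated. The methods describe male C57BL/6J mice aged 6 to 8 weeks, and no transgene or drug distinguished the 5 samples. All 5 came as 1 merged matrix of 10x Genomics 3' counts with 5 libraries, known only by the number that ends each barcode, and the labels do not tie that number to a condition. For that reason nothing below is given by time after injury, the libraries are named by number, no p-value was computed, and every interval covers counting error only. The labels also call the cell type "Goblet cell", whereas proximal tubule-gated cells (at least 3 UMIs of Slc34a1 and Lrp2, 0 of Ptprc) made up 50306 of the 79202 barcodes. Library 3 stood apart, with 33839 barcodes at a median of 1242 UMIs, while the other libraries had 10020 to 12745 barcodes at medians of 3190 to 4294.5 UMIs. Between libraries, 1290 of the 79202 barcodes carried a barcode sequence also found in another library, and no mature dendritic cell shared one with another.

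Dendritic cells take up antigen in tissues and present it to T cells on MHC molecules. On maturation they turn on Ccr7, the receptor for lymph node chemokines, and Fscn1, an actin-bundling protein of their long cell processes, and they travel through lymph vessels to the draining node. Maturation is known to lower antigen uptake and to raise costimulatory and inhibitory ligands, NF-kB subunits and survival genes, and mature cells that started as conventional type 1 (cDC1) or type 2 (cDC2) dendritic cells come to resemble each other.

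The mature cells were unevenly spread over the libraries. Libraries 1 to 4 held 15, 29, 6 and 3 of them and library 5 held 0. They made up 2.66% of all 1993 barcodes with at least 3 UMIs of H2-Aa and no B or T cell transcript from the rule (exact binomial 95% interval 1.998 to 3.46%). By library this share was 2.33%, 4.13%, 1.60% and 1.68% in libraries 1 to 4, and 0 of 92 barcodes in library 5, a count that allows a share of up to 3.26% by the level of 3 counts and up to 3.93% by the exact interval. Library 2 therefore had the highest share, and its interval of 2.78 to 5.87% overlapped those of libraries 1 (1.31 to 3.81%), 3 (0.589 to 3.45%) and 4 (0.347 to 4.82%). Library 2 alone held 54.7% of the mature cells, so 24 remained without it.

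As a comparison, 275 Ccr7-negative dendritic cells were taken under the same depth and class II limits, with 0 UMIs of Ccr7, Fscn1 and the complement genes C1qa, C1qb and C1qc. Of these, 63 were cDC1-gated (at least 1 UMI of Xcr1 or Clec9a) and 212 were cDC2-gated (no such UMI, at least 1 of Cd209a, Clec10a or Mgl2). Libraries 1 to 5 held 82, 68, 83, 36 and 6 of them. Against this group the mature cells were 15.5%, 29.9%, 6.74%, 7.69% and 0% of the cells in both gates, and 16.2% over all libraries (12.3 to 20.6%). The interval for library 2 (21.0 to 40.0%) lay above those for library 3 (2.51 to 14.1%) and library 4 (1.62 to 20.9%) and overlapped that for library 1 (8.92 to 24.2%) and that for library 5, where 0 of 6 cells allow up to 45.9%. The Ccr7-negative cells of libraries 1 to 5 had median depths of 4910, 5317.5, 3283, 4146.5 and 3307 UMIs. Both gates rest on whether Ccr7 and Fscn1 UMIs were seen, and the part of depth in these shares was not tested.

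**Figure D1:**
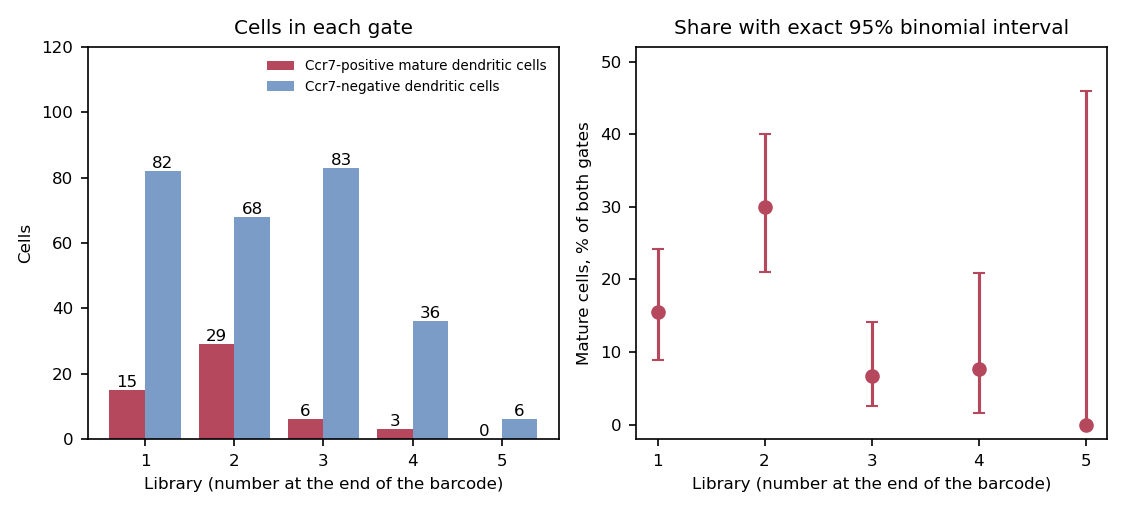
Cells in each gate by library (left, number of cells) and the mature cells as a percentage of both gates (right, points with exact 95% binomial intervals). Libraries 1 and 2 held 15 and 29 mature cells, libraries 3 and 4 held 6 and 3, and library 5 held 0 beside 6 Ccr7-negative cells.

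The cells were chosen by their H2-Aa, Ccr7 and Fscn1 counts, whose values are therefore a description. H2-Aa ran from 3 to 96 UMIs per cell with a median of 36, Ccr7 from 1 to 47 with a median of 16, and Fscn1 from 1 to 26 with a median of 6. Just inside the limits were 1 cell with a single Ccr7 UMI, 6 cells with a single Fscn1 UMI and 4 cells with 3 UMIs of H2-Aa. Just outside were 83 barcodes that met every limit except Fscn1, 10 that lacked only Ccr7, 8 that had 1 or 2 UMIs of H2-Aa, 4 that had none, and 7 that had Cd79a or Cd3 UMIs. The 83 barcodes without Fscn1 had Ccr7 at 839 CPM, the counts of a gene scaled to 1000000 UMIs after adding up all cells of a gate, against 3260 CPM in the mature cells. They also had Ccl22 at 317 CPM against 749 CPM, and Lyz2, a lysozyme of myeloid cells, at 1708 CPM against 23.5 CPM. The 8 barcodes with 1 or 2 UMIs of H2-Aa resembled the mature cells in having Ccr7 at 2626 CPM, Ccl5 at 5083 CPM and Lyz2 at 56.5 CPM.

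Of the 5 markers named for the cell type, 2 are part of the rule, and the other 3 were not equally marked. Ccl22, a chemokine that draws T cells bearing Ccr4, was at 749 CPM in the mature cells and 24.6 CPM in the Ccr7-negative cells, and it was seen in 33 of 53 and 15 of 275 cells. All 33 cells taken when Ccl22 replaced Ccr7 in the rule were among the 53. Ccl17, the other ligand of Ccr4, was at 686 CPM against 351 CPM, a log2 ratio of 0.97 (counting interval 0.73 to 1.21). That is close to the 2-fold limit, and it was past it without library 1 (1.08), without library 2 (1.29), against cDC1-gated cells alone (1.48) and with cells thinned to 1000 UMIs (1.45), and under it without library 3 (0.61) and with libraries 1 and 2 weighted equally (0.39). Cd74, the invariant chain of MHC class II, was at 14012 CPM in the mature cells and 21057 CPM in the Ccr7-negative cells, against 124 CPM in proximal tubule-gated cells. The label thus held for Ccl22, Ccl17 lay on either side of 2-fold depending on the setting, and Cd74 was not higher than in the other dendritic cells.

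Markers of most other cell types were few in the mature cells, and their summed level was lower than in the Ccr7-negative cells except for thick ascending limb, T cell and fibroblast markers. The 2 thick ascending limb markers had 69 UMIs, or 232 CPM against 37.3 CPM in the Ccr7-negative cells, and 64 of the 69 were in 1 cell. The T cell markers outside the rule had 14 UMIs in 9 of 53 cells, or 47.1 CPM against 10.6 CPM. Those UMIs were on Cd4, Cd8a, Tcf7 and Bcl11b, with Trac, Trbc1, Trbc2 and Lef1 at 0. Fibroblast and pericyte markers had 1 UMI against 2, or 3.36 against 1.41 CPM. All 6 natural killer cell markers and both collecting duct markers were at 0. Of 7 macrophage markers 4 had a UMI, for 7 UMIs in all, or 23.5 CPM against 274 CPM in the Ccr7-negative cells, whose gate left out C1qa, C1qb and C1qc, and C1qb, Adgre1 and Csf1r were at 0. Of 6 monocyte markers only Plac8 had UMIs, 10 in all or 33.6 against 1013 CPM, and of 5 neutrophil markers S100a8 and S100a9 together had 2, or 6.72 against 21.1 CPM. B cell markers outside the rule were at 43.7 against 113 CPM, endothelial markers at 10.1 against 51.4 CPM and markers of type 2 innate lymphoid cells at 30.2 against 46.5 CPM. Plasmacytoid dendritic cell markers were at 63.9 against 453 CPM. Of these 6 plasmacytoid dendritic cell markers Siglech, Cox6a2 and Ly6d were at 0 in the mature cells, and Ccr9, Tcf4 and Klk1 had 19 UMIs together. The Ccr7-negative group had 42 of 275 cells with a UMI of Siglech, Cox6a2, Ly6d, Ly6c2 or Ren1. The 10 proximal tubule markers took 0.977% of the UMIs of mature cells and 1.41% of those of Ccr7-negative cells, and 6 of 53 against 43 of 275 cells had more than 2% of their UMIs on them. No doublet caller was run on so few cells, and the part of free RNA and of doublets in the differences below was not tested beyond leaving these barcodes out.

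The mature cells and the Ccr7-negative dendritic cells differed over a broad set of genes, among them the chemokine Ccl5, the cytokine subunit Il12b and the lipid chaperone Fabp5 on the higher side and Naaa, Lyz2 and Ccr2 on the lower side. Among 3687 genes with a mean of at least 30 CPM over both groups, 478 were at least 2-fold higher in the mature cells (13% of genes) and 615 at least 2-fold lower (16.7%). The counting interval lay off 0 for 472 and 574 of them. In libraries 1 and 2, the only libraries with at least 10 cells of each group, 443 and 568 lay in the pooled direction in each library. These libraries held 15 and 29 of the 53 mature cells and so largely set the pooled direction. The counts are therefore no independent support, and the same share over all kept genes was not counted. The median log2 ratio over all these genes was -0.15. Genes of the rule and of the comparison gates are left out of every list that follows.

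Ccl5, which attracts T cells and other leukocytes, had 7579 CPM in the mature cells and 32.4 CPM in the Ccr7-negative cells, a log2 ratio of 7.87 (7.45 to 8.32). In the mature cells of libraries 1 to 4 it stood at 8286, 8426, 5213 and 1425 CPM, and in the Ccr7-negative cells of libraries 1 to 5 at 25, 43.7, 48.1, 0 and 0 CPM. Every library with mature cells was therefore above every library of Ccr7-negative cells. Macrophage-gated cells, 1314 barcodes with at least 3 UMIs of C1qa, C1qb and C1qc and none of Ccr7 and Fscn1, had 117.9 CPM. A Ccl5 UMI was present in 86.8% of mature, 7.27% of Ccr7-negative and 1.33% of proximal tubule-gated cells, whose median depths were 5239, 4430 and 4757 UMIs. With each cell thinned to 1000 UMIs, which left out 1 mature and 11 Ccr7-negative cells, these shares were 76.9%, 3.03% and 0.300%.

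Il12b, the subunit shared by interleukin-12 and interleukin-23, had 142 UMIs in 21 mature cells and 0 in all 275 Ccr7-negative cells. Against the level that 3 UMIs over the comparison group would make, it was at least 226-fold higher. Libraries 1 to 4 had 1028, 388, 0 and 178 CPM in the mature cells, so the gene was high in library 1 and not seen in the 6 cells of library 3. The level in library 1 rested largely on few cells, as 1 cell there had 29 of the 142 UMIs and another had 17. Without library 1 the bound on the log2 scale was 6.72 instead of 7.82. Il12a, the partner of Il12b in interleukin-12, had 0 UMIs in the mature cells and 4 in the Ccr7-negative cells.

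Of the 15 leading higher genes, those at 0 in the Ccr7-negative cells beside Il12b were Nudt17 (262 CPM in 33 mature cells), Apol7c (245 CPM in 19) and H2-M2, a nonclassical MHC class I gene (242 CPM in 16). Cacnb3, a subunit of voltage-gated calcium channels, had 87 UMIs in 33 mature cells and 1 UMI in the comparison, a log2 ratio of 8.70 (6.18 to 14.02). Tm4sf5, a tetraspanning membrane protein, and Tnfrsf4, the costimulatory receptor OX40, each had 52 UMIs against 1. Anxa3, an annexin, was at 783 against 14.1 CPM, Serpinb6b, a protease inhibitor, at 823 against 14.1 CPM, and Zmynd15 at 551 against 7.75 CPM. Adora2a, the adenosine receptor, had 25 UMIs in 20 mature cells and 2 in the comparison. M1ap, Pdlim4 and the unnamed transcript Gm13546 each had 1 UMI in the comparison against 25, 18 and 30.

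On the lower side, Lyz2 had 7 UMIs in 6 mature cells and 1959 in the Ccr7-negative cells, or 23.5 against 1380 CPM. By library the mature cells had 61.4, 5.46, 75 and 0 CPM and the Ccr7-negative cells 1500, 1724, 770, 1738 and 525 CPM, so no mature library reached the lowest of the others. The log2 ratio was -5.87 (-7.19 to -4.83), and -4.57 without library 2 and -6.68 without library 1. Ccr2, the receptor that brings monocyte-lineage cells into tissue, had 0 UMIs in the mature cells and 315 CPM in the Ccr7-negative cells (230 to 339 CPM by library), which puts it at least 31.2-fold lower. Naaa, a lysosomal amidase, had 1 UMI against 380, a log2 ratio of -6.32 (-11.62 to -3.83). Tgfbi, Mmp12 (a macrophage elastase), Itgam (the integrin CD11b), Tep1 and BC028528 each had 1 UMI in the mature cells against 121 to 220, and Pltp, Clec4b1, Ear2 and Gpr171 each had 2 against 184 to 247. Egr1, an immediate early gene, had 4 UMIs against 361, Dab2, an endocytic adaptor, 3 against 268 and Pid1 3 against 261. The 15 leading genes each way have the most extreme pooled ratios among genes that lie the same way in libraries 1 and 2. Their staying past 2-fold is therefore no independent support. With any 1 library left out, 14 of the 15 leading higher and all 15 leading lower genes stayed past 2-fold, with log2 ratios of at least 4.74 and at most -1.56. The exception was Pdlim4, which had 15 of its 18 UMIs in library 2 and was too low in both groups for a ratio without it. The size of many lower ratios rests on 1 to 3 UMIs and on library 2. Without that library Tep1 (-1.56), Mmp12 (-1.65), Ear2 (-1.997), Gpr171 (-2.29) and Naaa (-3.25) had no mature UMI left. Their values there are bounds set by the level of 3 UMIs, so they do not show a smaller difference. Egr1 was at -3.04 without library 2. The 15 lower ratios, bounds included, ran from -4.57 to -1.56 without library 2 and from -6.68 to -2.55 without library 1. Of the higher genes Gm13546 was at 4.74 without library 1, Tm4sf5 and M1ap were at 5.05 without library 2, and Cacnb3 and Tnfrsf4 were at 6.74 and 6.01 without library 3. All of these are bounds too, as the comparison then had no UMI left. Without library 1, Apol7c was at 5.58 instead of 6.86, H2-M2 at 5.54 instead of 6.84 and Zmynd15 at 5.39 instead of 6.15, while Adora2a was at 6.98 instead of 5.90 without library 2. Of the lower genes, Clec4b1 was at -2.72 instead of -4.47 and Pid1 at -2.94 instead of -4.19 without library 2. Pid1 was at -5.27 without library 1. Itgam (-3.11) and BC028528 (-2.55) without library 1 were bounds, as were Ccr2 (-3.54) and Tgfbi (-2.64) without library 2. Egr1 was at -5.99 without library 3. Against cDC2-gated cells alone Itgam was at -5.39 and Clec4b1 at -4.94, and against cDC1-gated cells alone at -1.44 and -1.61.

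**Figure D2:**
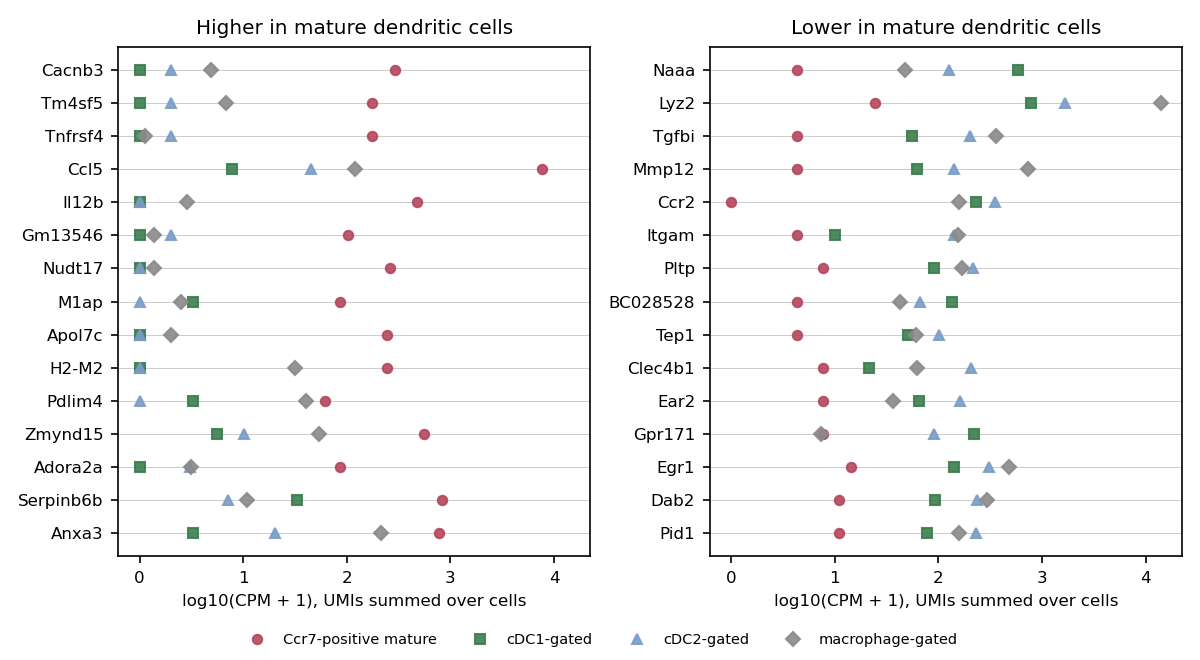
The 15 leading genes in each direction (rows), with log10(CPM + 1) from summed UMIs on the horizontal axis for mature, cDC1-gated, cDC2-gated and macrophage-gated cells. On the left the mature cells lie above the other 3 groups for all 15 genes, and on the right they lie below them, with Ccr2 at 0 and Gpr171 level with the macrophage-gated cells.

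The gene lists below were drawn up with earlier results of these data known, so their counts and medians are no independent evidence of a direction. Each list's counts are to be read beside the 13% of all kept genes that were higher and the 16.7% that were lower. The filter on mean CPM also acts on them, since 241 of the 478 higher genes were under 30 CPM in the Ccr7-negative cells and 312 of the 615 lower genes were under 30 CPM in the mature cells, and such genes passed through 1 group alone. Where the libraries of a gene are said not to overlap, above or below, the gene was picked by name. The share of all kept genes without overlap was not counted.

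Of 28 genes listed under migration and cytoskeleton, all of which were kept, 22 were at least 2-fold higher and 0 lower, with a median log2 ratio of 2.43 against -0.15 over all genes. Of the 28, 10 were under 30 CPM in the Ccr7-negative cells and passed the filter through the mature cells alone, and the median over the others was 1.97 against -0.13 over all genes at 30 CPM or more in both groups. Cytip (1.11) was at 0.95 without library 3. The higher genes include Nudt17, Slco5a1, Serpinb6b, Serpinb9, Socs2 and Cd63, which are not known chiefly for migration or the cytoskeleton. Tmem123, a surface mucin of dendritic cells, was at 951, 1146, 1125 and 935 CPM in the mature cells of libraries 1 to 4 and at 32.8 to 59.1 CPM in the Ccr7-negative cells. Those values were close together in every library, and the log2 ratio was 4.27 (3.91 to 4.64). Samsn1, an adaptor protein, was at 1072 against 83.1 CPM, Marcksl1, an actin-linked protein of the cell cortex, at 716 against 84.5 CPM and Cxcl16, a membrane-bound chemokine, at 897 against 128 CPM. Socs2, a suppressor of cytokine signalling, was at 333 against 12 CPM, and 10.0% of the proximal tubule-gated cells also had a Socs2 UMI. Slco5a1, a transporter family member, had 27 UMIs against 0. Gpr183, the oxysterol receptor that guides dendritic cells, was at 323 against 76.8 CPM, and Ptger4, the prostaglandin E receptor, at 188 against 42.3 CPM. The bulk cytoskeleton moved less, with Actb at a log2 ratio of 0.56, Tmsb4x at 0.73 and Tmsb10 at -0.94, which was -1.06 without library 1 and -1.01 without library 3.

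Chemokine ligands were divided. Of 11 kept, 5 were higher and 4 lower, with a median log2 ratio of 0.97. That median was -0.34 without library 1 and -0.57 over the genes at 30 CPM or more in both groups. Ccl5, Ccl22 and Cxcl16 were higher in libraries 1 and 2. Ccl22 stood at 905, 753, 563 and 490 CPM in the mature cells of libraries 1 to 4 and at 29.6, 48.8, 2.67, 10.7 and 0 CPM in the Ccr7-negative cells of libraries 1 to 5, with no overlap. Its log2 ratio was 4.93 (4.41 to 5.48), and 5.58 without library 2. Ccl17 did overlap, at 691, 791, 488 and 44.5 CPM against 411, 719, 40.1, 118.0 and 0 CPM, and its log2 ratio within library 2 was 0.14. Cxcl9 and Cxcl1 were past 2-fold in the pooled data through few cells. A single mature cell held 80.7% of the Cxcl9 UMIs and Cxcl9 was at 0.79 without library 2, while Cxcl1 was at -0.34 without library 1. The myeloid chemokines Ccl6 (47.1 against 288 CPM) and Ccl9 (70.6 against 268 CPM) were lower, as were Ccl4 and Cxcl2, for which 1 mature cell held 95.8% and 50.0% of the UMIs. Without library 2, Ccl4 was at -4.58 instead of -2.71 and Ccl6 at -1.96 instead of -2.61. Ccl9 was higher than in cDC1-gated cells, with a log2 ratio of 0.96. Ccl19, a ligand of Ccr7, had 1 UMI in the mature cells and 0 in the comparison.

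Among chemokine receptors outside the rule, Ccr2 was lower, Ccrl2, a chemerin-binding receptor, was higher at 235 against 85.2 CPM, and Cxcr4 had a log2 ratio of 0.84 with an interval of -0.25 to 1.84, and 1.23 without library 2. Ccrl2 was at 0.99 against cDC2-gated cells alone and at 4.37 against cDC1-gated cells alone.

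Costimulatory genes were higher in part. Of 9 kept, 4 were higher and 1 was lower, with a median log2 ratio of 0.67. Over all kept genes 13% were higher and 16.7% lower, so the lower count was not above the background. Of the 9, 2 were under 30 CPM in the Ccr7-negative cells, and the median over the others was 0.66. Cd40, the receptor through which helper T cells license dendritic cells, was at 184, 142, 188 and 44.5 CPM in the mature cells of libraries 1 to 4 and at 34.1, 38.5, 16.0, 5.36 and 0 CPM in the Ccr7-negative cells. The mature libraries all exceeded the others, but the 44.5 CPM of library 4 stand for 1 UMI and lie close to 38.5 CPM. The log2 ratio of Cd40 was 2.50 (1.84 to 3.18). Cd80 was at 80.7 against 33.1 CPM, a log2 ratio of 1.29 that was 1.95 without library 2 and 1.03 without library 1. It was 0.88 against cDC2-gated cells alone and 3.15 against cDC1-gated cells alone. Cd83, a surface protein that stabilises MHC class II, was at 1065 against 439 CPM. Cd86, the other ligand of Cd28, was at 101 against 83.8 CPM, a log2 ratio of 0.27 with an interval that includes 0 (-0.36 to 0.85), and 0.91 without library 2. Cd48, an adhesion ligand, was lower at 37.0 against 153 CPM.

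Of 9 inhibitory and tolerance-linked genes kept, 7 were higher and 2 lower, and 12 further genes of the list were under the filter. The median log2 ratio was 3.92, but 6 of the 9 were under 30 CPM in the Ccr7-negative cells and passed through the mature cells alone, and the median over the other 3 was -1.06. Cd274, which encodes the ligand PD-L1, was at 200, 246, 300.0 and 178 CPM in the mature cells of libraries 1 to 4 against 22.7, 15.4, 2.67, 5.36 and 0 CPM in the Ccr7-negative cells. Mature cells were above in every library, with a log2 ratio of 4.21 (3.45 to 5.05), and 4.91 without library 1. Il4i1, an amino acid oxidase, was at 445, 666, 638 and 356 CPM against 13.6, 18.0, 26.7, 5.36 and 0 CPM, and its log2 ratio was 5.13 (4.51 to 5.81). Cd200, a ligand that restrains myeloid cells, was at 161 against 12 CPM. Aldh1a2, which makes retinoic acid, had 40 UMIs in 20 mature cells and 6 in the comparison. Fas, the death receptor, was at 63.9 against 4.23 CPM (3.92, and 4.63 without library 2) and Pvr, a ligand of Tigit, at 97.5 against 33.8 CPM. The 2 lower genes were close to the limit, Socs3 at -1.08 and Tgfb1 at -1.05, and Socs3 was at -0.77 without library 2 and -0.96 without library 3, while Tgfb1 was at -0.98 without library 4 and -1.71 without library 2. Il10 had 0 UMIs in each group and Ido1 had 1 in the mature cells.

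NF-kB genes were higher for 13 of 23 kept and lower for 1 (Bcl3), with a median log2 ratio of 1.50. The higher genes included Relb, Nfkb2 and Map3k14 of the noncanonical branch. Relb, the partner of the processed Nfkb2 product, stood at 353, 508, 488 and 534 CPM in the mature cells of libraries 1 to 4 and at 22.7, 74.5, 16.0, 32.2 and 65.6 CPM in the Ccr7-negative cells, with no overlap, and its log2 ratio was 3.67 (3.20 to 4.15). Nfkb2 was at 188 against 50.0 CPM, Rel at 1176 against 298 CPM and Map3k14, the kinase that starts Nfkb2 processing, at 151 against 39.4 CPM (1.94, and 2.80 without library 2). Of the canonical subunits, Rel was thus past 2-fold, while Nfkb1 (118 against 159 CPM) and Rela (60.5 against 42.3 CPM) were within it. Of the inhibitors, Nfkbib was higher at 171 against 58.4 CPM, and Nfkbia (0.90), Nfkbid (0.98), Nfkbie (0.02) and Nfkbiz (-0.01) were within 2-fold on the log2 scale, though Nfkbid was at 1.27 without library 2. Traf1, a signalling adaptor, was at 1133 against 298 CPM, and Birc2 and Birc3, ubiquitin ligases of the pathway, were at 202 against 19.0 CPM and 182 against 65.5 CPM.

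Promoters of 21 of the 25 listed NF-kB genes were in the RefSeq table for build GRCm38.p6 (250 bases before to 50 after the start), and Nfkb1, Relb, Nfkbiz and Ikbkb had no entry. The kB consensus, a motif of 10 letters searched on both strands, was present in the first listed window of 10 of these 21 genes. The 10 include Bcl3, which was lower, and Nfkbia, Nfkbie and Tnfaip3, which were within 2-fold. Over the first window of each gene, it was present in 8.18% of all 27025 promoters, in 11.3% of those of the kept genes, in 62 of 384 (16.1%) of the higher genes and in 51 of 489 (10.4%) of the lower genes. Such a match is a description of letters and not of a bound site. The 3 sequences below are the 250 bases before a start of higher genes of the list, shown because, of the 6 higher genes of the list with a match in that first window, these had overlapping matches in a window, while Traf3, Tnfaip2 and Tank had single ones, with every base that belongs to a match in capitals. They are Nfkb2 at chr19:46304487-46304736 on the plus strand, Rel at chr11:23770970-23771219 on the minus strand and Tnip1, an inhibitor of the pathway, at chr11:54962941-54963190 on the minus strand, each written 5′ to 3′ along the gene.
Nfkb2: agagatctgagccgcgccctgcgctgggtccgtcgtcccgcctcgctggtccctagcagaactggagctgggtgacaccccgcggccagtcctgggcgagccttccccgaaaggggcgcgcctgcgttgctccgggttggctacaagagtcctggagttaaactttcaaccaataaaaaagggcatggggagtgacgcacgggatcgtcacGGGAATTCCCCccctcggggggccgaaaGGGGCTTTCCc
Rel: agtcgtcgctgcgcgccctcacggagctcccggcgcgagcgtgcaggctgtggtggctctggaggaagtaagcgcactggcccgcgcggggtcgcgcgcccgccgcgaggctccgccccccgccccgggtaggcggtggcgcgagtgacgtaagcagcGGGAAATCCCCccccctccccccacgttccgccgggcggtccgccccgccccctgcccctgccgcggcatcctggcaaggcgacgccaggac
Tnip1: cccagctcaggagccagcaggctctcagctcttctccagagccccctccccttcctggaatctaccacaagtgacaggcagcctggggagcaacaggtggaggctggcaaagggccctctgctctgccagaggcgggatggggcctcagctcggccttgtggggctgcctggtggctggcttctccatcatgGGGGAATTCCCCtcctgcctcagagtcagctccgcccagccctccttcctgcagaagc

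Counted from the start site, the capitals of Nfkb2 hold 2 overlapping matches starting at -39 and -38 and a separate match at -11. Those of Rel hold 2 overlapping matches at -92 and -91, and those of Tnip1 hold 3 at -58, -57 and -56.

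Of 24 kept transcription factors of maturation, 15 were higher and 1 (Zeb2) lower, with a median log2 ratio of 1.25, and 1.03 over the genes at 30 CPM or more in both groups. Beside Rel and Relb these included Stat4, at 161 against 16.2 CPM, Nr4a3, at 417 against 118 CPM, Etv3, at 639 against 185 CPM, and Id2, a repressor required for conventional dendritic cells, at 1307 against 319 CPM. Irf8, a factor of cDC1 cells, was at 481 CPM in the mature cells, 717 CPM in the cDC1-gated and 79.6 CPM in the cDC2-gated cells. Irf4, a factor of cDC2 cells, had 12 UMIs in the mature cells and was at 1.03 (-0.08 to 2.05), and at 0.44 without library 2. It was at 0.78 against cDC2-gated cells alone. Bhlhe40 (1.31) was at 0.98 without library 2, Irf1 (1.20) at 0.74 without library 1, and Kdm2b (1.30) at 0.17 without library 2.

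Cytokines and their receptors were higher for 9 of 17 kept genes and lower for 3, beside 13% and 16.7% of all kept genes. The lower count was thus near the background. Of the 9, Csf2rb (1.08) was at 0.88 without library 3 and Il4ra (1.07) at 0.87 without library 1. The median log2 ratio was 1.07, and -0.099 over the genes at 30 CPM or more in both groups. Il15 (57.1 against 9.15 CPM) and its presenting receptor Il15ra (84.0 against 2.82 CPM) were both higher. So were Il21r (192 against 29.6 CPM), Il7r (124 against 35.9 CPM), Il2ra (19 UMIs against 2) and Il1rn, an antagonist of interleukin-1 (84.0 against 9.15 CPM, or 3.20, and 4.63 without library 2). Csf1r, the receptor for the macrophage growth factor, had 0 UMIs in the mature cells and 116 in the comparison, with a bound of -3.02 that was -1.39 without library 2. That bound was -3.49 against cDC2-gated cells alone and only -0.17 against cDC1-gated cells alone, so no 2-fold fall was shown against the latter. Ifngr1 was lower at 70.6 against 272 CPM. Il1b was at 1412 against 2051 CPM, a log2 ratio of -0.54.

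For MHC class II presentation, 0 of 12 kept genes were higher and 3 were lower, beside 13% and 16.7% of all kept genes, so the lower count was near the background, and the median log2 ratio was -0.46. H2-Ab1 was at 4413 against 8197 CPM (-0.89) and H2-Eb1 at 5959 against 6962 CPM (-0.22), so the class II chains were within 2-fold. The lower genes were H2-DMb1 (87.4 against 658 CPM) and H2-DMa (259 against 854 CPM), which form the peptide exchange factor, and H2-Ob, at -1.04 and at -0.63 without library 2. Ciita, the class II transactivator, was at 70.6 against 132 CPM (-0.91, and -1.30 without library 2). For MHC class I presentation, 12 of 17 kept genes were higher and 1 (Pdia3) was lower, with a median of 1.09. Against the cDC1-gated cells alone that median was 0.77. There Psmb9 (0.22), Tap2 (0.26), Psme1 (0.53), Psmb8 (0.61), H2-T23 (0.91) and Tapbp (0.95) were under 2-fold. H2-K1, H2-D1, H2-Q7, B2m, Tapbpl and Psme2 stayed past it. H2-K1 stood at 3974, 2696, 2288 and 2583 CPM in the mature cells of libraries 1 to 4 and at 1295, 876, 537, 719 and 295 CPM in the Ccr7-negative cells of libraries 1 to 5, with no overlap and a log2 ratio of 1.73 (1.60 to 1.86). B2m, the class I light chain, was at 2988 against 1051 CPM and Psme2, a proteasome activator subunit, at 1274 against 255 CPM. H2-K1, H2-D1 and H2-Q7 are close paralogs, so how their reads were divided is uncertain. Tapbp, Psmb8, Psmb9, Tap2 and H2-T23 lay between 1.00 and 1.10, and each fell under 2-fold with at least 1 library left out. These lowest values were 0.74 for Tapbp without library 1, 0.93 for Psmb8 without library 3, 0.73 for Psmb9 without library 2, 0.71 for Tap2 without library 2 and 0.80 for H2-T23 without library 2.

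Outside the gate genes, 5 of 9 kept cDC1 genes were lower and 1 (Batf3) was higher, with a median of -1.92. Of the 9, 4 were under 30 CPM in the mature cells and passed the filter through the Ccr7-negative cells alone, and the others had a median of -0.15, the same as over all genes. For cDC2 genes, 8 of 12 were lower and 2 (Irf4 and Ltb) higher, beside 16.7% and 13% of all kept genes. The higher count was thus near the background. Against cDC2-gated cells alone Irf4 was at 0.78 and Ltb at 0.55, both under 2-fold, and against cDC1-gated cells alone at 1.83 and 3.56. Batf3 was at 0.31 against cDC1-gated cells alone and at 1.69 against cDC2-gated cells alone. The cDC2 median was -1.65, and -1.02 without library 2. Without that library Sirpa (-1.19) was at -0.55, Clec12a (-1.22) at -0.62 and Ltb (1.08) at 0.89, and Clec12a was also under 2-fold without library 1 (-0.83) and Ltb without library 4 (0.95). Of the 12, 5 were under 30 CPM in the mature cells, and the median over the genes at 30 CPM or more in both groups was -0.68. Against the cDC2-gated cells alone the cDC1 median was -0.13, and against the cDC1-gated cells alone the cDC2 median was -0.19. A comparison cell had to have a UMI of a cDC1 or cDC2 gate gene, and a mature cell did not. Genes expressed together with the gate genes are thus favoured in the comparison, even with the gate genes left out. The lower cDC1 and cDC2 genes are therefore no independent evidence of a loss of identity, and the part of the gating was not tested. The gate genes themselves were not required to be absent from mature cells, where Xcr1 had 4 UMIs, Clec9a 1, Cd209a 5, Clec10a 9 and Mgl2 1. Ppt1, a lysosomal enzyme of cDC1 cells, was at 16.8 CPM against 632 CPM in cDC1-gated cells, and Ifi205 and Rab7b had 0 UMIs in the mature cells and 144 and 114 in the Ccr7-negative cells, with bounds of -3.33 and -2.99 that were -2.01 and -1.24 without library 2. Among pan-dendritic genes Flt3, the growth factor receptor of the lineage, was within 2-fold at 80.7 against 55.6 CPM, Cst3 at 12264 against 8633 CPM, and Itgax, the integrin CD11c, was lower at 57.1 against 139 CPM (-1.29, and -0.46 without library 2). Itgax was at -1.60 against cDC2-gated cells alone and at -0.16 against cDC1-gated cells alone.

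Of 30 sensing and uptake genes in the matrix, 17 were under the filter, and of the 13 kept 8 were lower and 1 was higher, with a median of -1.65. Of these 13, 7 were under 30 CPM in the mature cells and passed through the Ccr7-negative cells alone, and the median over the genes at 30 CPM or more in both groups was -0.84. Cd14, the endotoxin coreceptor, was at 23.5 against 192 CPM, Fcgr2b, an Fc receptor, at 13.4 against 142 CPM, Cd68, a lysosomal glycoprotein, at 23.5 against 182 CPM and Myd88, the adaptor of Toll-like receptors, at 16.8 against 52.8 CPM. Fcgr3 and Clec4a2 had 0 UMIs in the mature cells, and their bounds of -2.64 and -2.71 were -0.97 and -1.22 without library 2. Fcer1g was at 450 against 1357 CPM, and level with the 425 CPM of the cDC1-gated cells. Without library 2, Cd14 was at -2.07 instead of -3.03 and Fcgr2b at -2.40 instead of -3.40, and Fcgr2b was at -5.43 without library 3. The higher gene was Ly75, the antigen uptake receptor DEC-205, with 26 UMIs against 6 (4.37, and 5.32 without library 1).

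Survival genes were higher for 11 of 17 kept and lower for 1 (Casp8), with a median of 1.74. Of the 17, 4 were under 30 CPM in the Ccr7-negative cells and 1 in the mature cells, and the median over the others was 1.38. Bcl2a1b was at 1758 against 379 CPM, and Bcl2a1a and Bcl2a1d were also higher, but these near-identical copies share reads and their division is uncertain. Gadd45b, a stress-induced signalling protein, was at 1590 against 287 CPM and Bcl2l14 at 255 against 9.86 CPM (4.70, and 5.54 without library 1). Mcl1 and Bax were within 2-fold, at -0.02 and -0.24.

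Of 13 kept lipid genes 3 were higher and 3 lower, beside 13% and 16.7% of all kept genes. Of the 13, 3 were under 30 CPM in the Ccr7-negative cells and 3 in the mature cells, and the median log2 ratio over the others was 0.55. Plin2 (-1.16) fell under 2-fold without library 2 (-0.84) and without library 4 (-0.98). Fabp5, a fatty acid chaperone, stood at 2992, 2090, 2850 and 2850 CPM in the mature cells of libraries 1 to 4 and at 54.5, 41.1, 82.9, 37.6 and 32.8 CPM in the Ccr7-negative cells, with no overlap. Its log2 ratio was 5.44 (5.10 to 5.79), and macrophage-gated cells had 1222 CPM. Apoe, abundant in macrophages, had 4 UMIs against 230, a log2 ratio of -3.59 that was -5.47 without library 1 and -2.66 without library 2. Interferon-stimulated genes were mostly under the filter, and of 6 kept 2 were higher, among them Gbp2 (3.20, and 4.00 without library 2), and Ifitm3 was lower (272 against 1864 CPM). Over all kept genes 13% were higher and 16.7% lower, so the lower count was at the background. Of the 6, 1 was under 30 CPM in the Ccr7-negative cells, and the median over the others was -0.12. In the pooled data none of 10 kept cell cycle genes was past 2-fold and their median was -0.069, but these values rested on a few cells. The median was 1.01 without library 2, -0.61 without library 3, -0.48 without library 4, -1.22 with libraries 1 and 2 weighted equally and -1.93 without the mature cells that had Mki67 or Top2a. Top2a was at -2.45 and Stmn1 at -2.16 without library 4, and Ube2c at -3.78 without library 3. In all, 5 of 53 mature against 24 of 275 Ccr7-negative cells had a UMI of Mki67 or Top2a. A single mature cell held 47.4% of the cell cycle UMIs of that group.

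**Figure D3:**
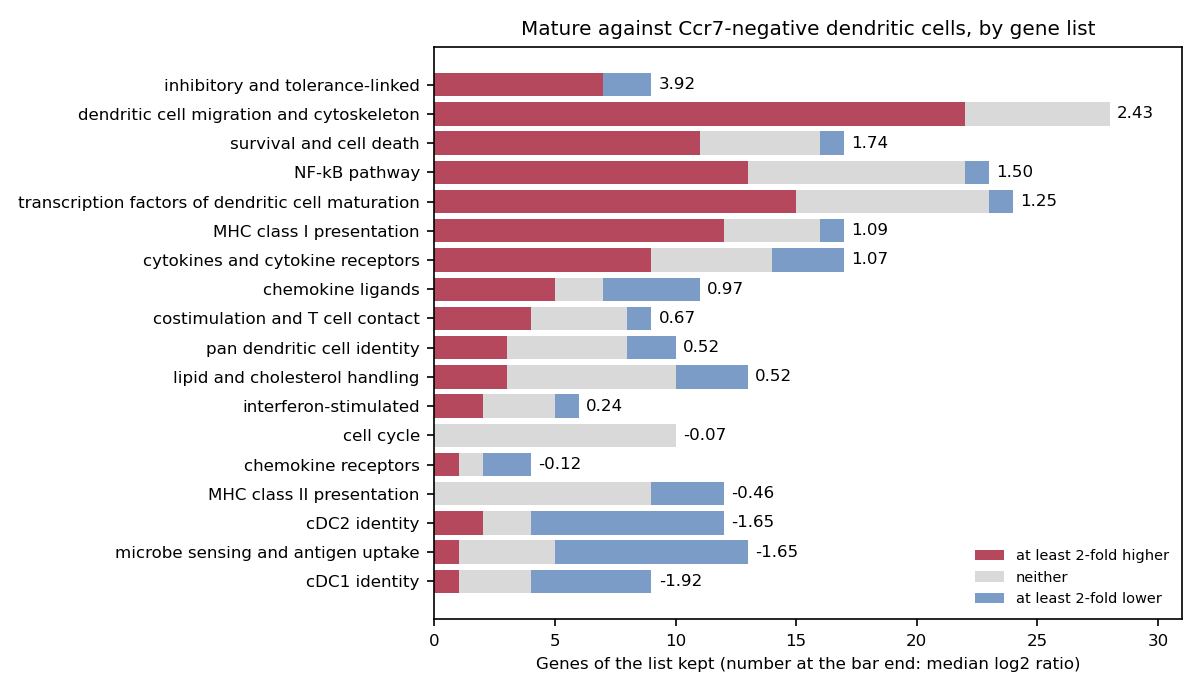
Genes of the 18 lists that passed the filter (horizontal axis, number of genes), split by whether they were at least 2-fold higher, at least 2-fold lower or neither in mature against Ccr7-negative dendritic cells, with the median log2 ratio at the end of each bar. Medians run from -1.92 (cDC1) to 3.92 (inhibitory), beside -0.15 over all 3687 genes, and 6 of the 9 inhibitory genes passed the filter through the mature cells alone.

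**Figure D4:**
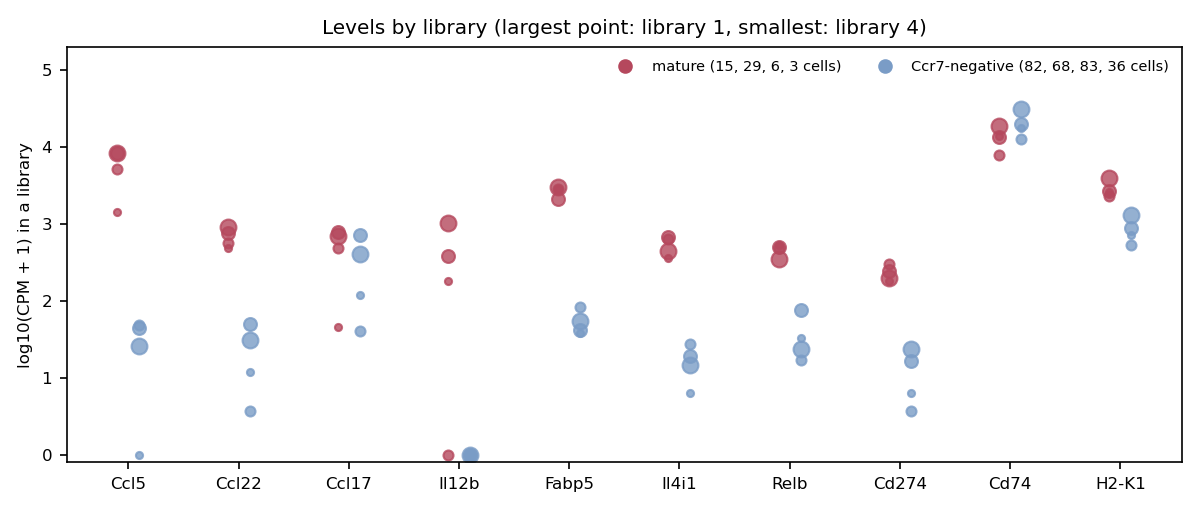
Level of 10 genes by library as log10(CPM + 1), for mature cells (15, 29, 6 and 3 cells in libraries 1 to 4) and Ccr7-negative dendritic cells of the same libraries. Ccl5, Ccl22, Fabp5, Il4i1, Relb, Cd274 and H2-K1 do not overlap between the groups, Ccl17 and Cd74 do, and Il12b is at 0 in all Ccr7-negative libraries and in the mature cells of library 3. The 10 genes were picked, and the share of all kept genes without overlap was not counted.

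The mature cells also varied among themselves. Ccl5 was present in 46 of the 53, Fabp5 and Relb in 44 each, Il4i1 in 42 and Cd274 in 32. Ccl22 was found in 33 cells and Ccl17 in 24, of which 20 had both, 13 had Ccl22 without Ccl17, 4 had Ccl17 without Ccl22 and 16 had neither. Of the 21 cells with Il12b, 17 had Ccl22 and 8 had Ccl17, while 13 had Il12b without Ccl17 and 16 had Ccl17 without Il12b. Both Il12b and Ccl17 were seen in 2 of 15 cells of library 1 and 5 of 29 of library 2. Ccl5 was uneven, from 0 to 288 UMIs with a median of 20, and its quartiles were 7.19 and 123 UMIs per 10000. Cells that had neither Ccl17 nor Ccl22 were shallower, with a median of 3924.5 UMIs against 5580.5 in cells with both, so a missing UMI in a cell is not absence of the transcript. After thinning to 1000 UMIs, Ccl22 was seen in 32.7% of mature cells, Ccl17 in 32.7% and Il12b in 21.2%, against 0, 0 and 0.0500% of the proximal tubule-gated cells.

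**Figure D5:**
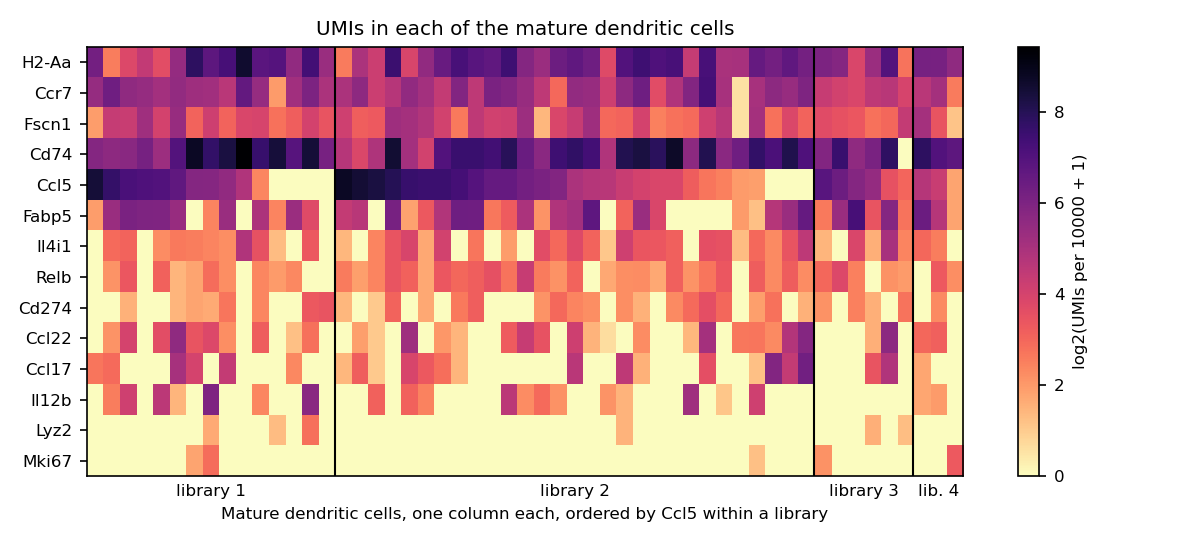
UMIs of 14 genes in each of the 53 mature cells (columns, grouped by library and ordered by Ccl5 within a library), as log2(UMIs per 10000 + 1). H2-Aa, Ccr7 and Fscn1 are above 0 in every column because the rule required them, while Ccl22, Ccl17 and Il12b are present in 33, 24 and 21 columns and Lyz2 in 6.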

How the data were processed

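Kidney cells were measured by 10x Genomics 3' single-cell RNA-seq, and per the labels and methods the authors processed the reads with Cell Ranger 6.0 against mm10. The deposited values are raw UMI counts of 32285 genes in 10474594 barcodes, merged over 5 libraries and not normalized. From these counts, barcodes with at least 500 UMIs, at least 200 genes and at most 25% of UMIs on 13 mitochondrial genes were kept, and the gates stated above were applied. The libraries held 53731010 to 106902794 UMIs in kept barcodes. The UMIs of a group's cells were added up per gene and expressed as CPM. The mature cells' 297533 UMIs make 3 UMIs worth 10.1 CPM, and the 1420083 UMIs of the comparison make 3 worth 2.11 CPM, which is the level used where a group had 0. Genes with a mean of at least 30 CPM over both groups were kept, and "higher" or "lower" means past 2-fold. Intervals are exact at 95%: Poisson or conditional binomial for counts and ratios, Clopper-Pearson for shares. With 1 pooled sample and no map from libraries to conditions, no test was made. The 5 conditions were not compared. Named genes are those of the rule and gates, of 18 lists and of the marker sets, and the 15 highest and 15 lowest ratios among genes past 2-fold that lie the same way in libraries 1 and 2. Some listed genes are not reported here by name. The members and lists were chosen with earlier results of these data known. For thinned shares, 2000 proximal tubule-gated cells were used. The gene comparison was tested on simulated counts. Python 3.11.15, numpy 2.4.6, scipy 1.17.1 and pandas 2.3.3 were used, and the closing section gives the alternatives.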

Additional observations from a re-analysis of the deposited data

How the results depend on the processing

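The number of mature cells stayed between 46 and 61 under other limits on H2-Aa, Ccr7 and Fscn1, depth, mitochondrial share and transcripts of other cell types. It was 33 with Ccl22 in place of Ccr7, and 24 to 53 with 1 library left out. The 478 higher and 615 lower genes became 722 higher with cells thinned to 1000 UMIs, 839 and 1550 with a mean of at least 10 CPM, 177 and 168 with at least 100 CPM, and 185 and 159 at a fold of 4. With 1 library left out they numbered 478 to 655 and 584 to 678. Higher genes were 43.7% of the calls, and 35.1% at 10 CPM and 53.8% at a fold of 4. Of 159 named genes past 2-fold, 134 stayed past it with any 1 library left out, 55 fell under it in at least 1 of 16 settings and 6 turned direction. The 6 were Fcer1g (0.082), Sirpa (0.43), Ccl9 (0.96) and Socs3 (0.41) against cDC1-gated cells, Kit (-0.21) with libraries 1 and 2 weighted equally, and Cxcl1, which was -0.34 without library 1, 2.63 without library 3 and 6.36 with libraries 1 and 2 weighted equally. Of 18 list medians, 5 changed sign in at least 1 setting. They were chemokine ligands (-0.34 without library 1), chemokine receptors (up to 1.56, against cDC1-gated cells), pan-dendritic genes (-0.07 with libraries 1 and 2 weighted equally), interferon-stimulated genes (-0.16 in that setting) and cell cycle genes (up to 1.01, without library 2). The settings without comparison cells that carry plasmacytoid, Ly6c2 or Ren1 UMIs, and without mature cells that carry Mki67 or Top2a, were chosen after seeing the data. Libraries 1 to 4 hold cells of both groups, and in place of a test ratios were also taken within libraries 1 and 2. With libraries 1 and 2 weighted equally 527 genes were higher and 598 lower. The depth limits genes of a few UMIs in the mature cells, where counting intervals span several log2 units, and libraries 3 and 4 hold 6 and 3 cells.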

Other observations

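Barcodes that met every limit except Fscn1 were more numerous than the mature cells, 83 against 53, and had Ccr7 at 839 CPM, Relb at 111 CPM and Il12b at 120 CPM, against 3260, 474 and 477 CPM in the mature cells. A Lyz2 UMI was present in 39 of the 83 and in 6 of the 53, and a Ccl22 UMI in 20 of the 83 and in 33 of the 53.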
